A study of Mus musculus with 16 samples.

Results

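Acinar cells are the enzyme-producing cells of the exocrine pancreas, and 31 genes of their enzymes, granule proteins and transcription factors were followed through 16 libraries of tumour cells sorted from mice. The genes were taken from a list of digestive enzyme and acinar identity genes, matched to mouse symbols by Entrez identifier. All 31 had a row among the 24467 genes of each library. They comprise 5 trypsinogens, 6 elastases and chymotrypsins, 2 carboxypeptidases, 6 lipid-digesting enzymes with their cofactor, 3 other enzymes (amylase, a ribonuclease and a kallikrein), 5 granule and secreted accessory proteins, and 4 transcription factors. The 26 enzymes and granule proteins other than Reg1 are called the secretory genes below, because Reg1 was far more abundant than most of them and was distributed differently.

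The tumours were orthotopic, that is, they grew in the pancreas of host mice, and arose from KPC 7TCF-eGFP/Porcn-DMA PDAC cells, a mouse pancreatic ductal adenocarcinoma line. All 4 groups carry these same modifications and differ only in the gate through which cells were sorted. DN cells were negative for both reporters, GFP cells carried the green signal of the 7TCF-eGFP reporter, which reads TCF-dependent WNT transcription, mScarlet cells carried the red signal, and DP cells carried both. The series also names a WNT-secreting population, but no label says in words that mScarlet marks it. The sources used here give neither the make-up of Porcn-DMA nor the strain, sex or age of the hosts. Each group has 4 libraries, described as 4 mice per group, from 1 cell line. The host organ normally holds acinar cells of its own, and no column of the count tables separates host RNA from that of the implanted cells.

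Acinar cells make digestive enzymes in bulk, mostly as inactive zymogens, pack them into granules and release them into the ducts. Their enzyme genes are switched on together by the PTF1 complex, in which Ptf1a pairs with a common E-box-binding partner and with Rbpjl, and Nr5a2 and Bhlha15 (Mist1) support the mature secretory state. In pancreatitis and early in pancreatic carcinogenesis acinar cells are known to lose enzyme expression and take on duct-like features, and secreted proteins of the Reg family are known to increase in the injured pancreas.

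The 5 trypsinogen genes are shown first because their reads are the hardest to assign to 1 gene. They lie in a cluster on mouse chromosome 6 (GRCm38, from 41302272 at the start of Try4 to 41525079 at the end of Prss2). The coding stretches of 81 bases below, read from the GENCODE M21 transcripts, begin at equivalent codons of each gene. Capitals mark the codons of the activation site, a run of aspartates and a lysine after which enteropeptidase cuts trypsinogen into trypsin. The capitals are the same in all 5 genes, and over the whole stretch a pair of genes differs by 1 to 6 bases.
Prss1: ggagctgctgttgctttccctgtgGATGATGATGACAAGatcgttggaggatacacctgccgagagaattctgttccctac
Prss2: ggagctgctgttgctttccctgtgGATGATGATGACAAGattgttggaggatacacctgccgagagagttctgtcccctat
Prss3: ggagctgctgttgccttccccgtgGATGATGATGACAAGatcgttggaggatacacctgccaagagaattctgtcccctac
Try4: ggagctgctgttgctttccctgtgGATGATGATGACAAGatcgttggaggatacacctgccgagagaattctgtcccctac
Try5: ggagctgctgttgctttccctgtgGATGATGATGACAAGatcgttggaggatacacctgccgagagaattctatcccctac
Among all exonic stretches of 100 bases, 45.0% of those of Prss3, 30.2% of Try4, 25.6% of Try5 and 21.8% of Prss1 also occur in another annotated gene, mostly another trypsin gene. Prss2 shares none. The values of Prss1, Prss3, Try4 and Try5 are therefore uncertain as single genes, and so are those of Cela2a (21.7% shared, with Ctrc), Cela3b (12.6%, with Cela3a) and Klk1 (6.08%, with other kallikreins). Cela2a and Ctrc also overlap each other, and Amy1 overlaps Rnpc3, on the same strand, so strand cannot tell their reads apart there. On the opposite strand, Cela2a and Ctrc overlap Casp9, Rbpjl overlaps Matn4 and Ptf1a overlaps an antisense transcript. Those reads cannot be told apart where the counting ignored strand.

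Promoters of 4 genes are shown because the secretory genes varied together across libraries while Reg1 did not. Each line gives the 250 bases before the RefSeq start of the gene (GRCm38.p6). Capitals mark the E-box sequences CACCTG and CAGCTG, the class of site that Ptf1a and its partner bind, and TGGGAA, the class of site that Rbpjl binds, on either strand.
Prss2, chr6:41521526-41521775, plus strand: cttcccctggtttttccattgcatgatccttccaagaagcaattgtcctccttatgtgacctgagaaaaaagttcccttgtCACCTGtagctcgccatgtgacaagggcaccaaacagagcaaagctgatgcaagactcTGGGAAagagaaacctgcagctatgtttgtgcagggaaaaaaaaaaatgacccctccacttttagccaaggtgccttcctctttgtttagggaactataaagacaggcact
Cel, chr2:28563404-28563653, minus strand: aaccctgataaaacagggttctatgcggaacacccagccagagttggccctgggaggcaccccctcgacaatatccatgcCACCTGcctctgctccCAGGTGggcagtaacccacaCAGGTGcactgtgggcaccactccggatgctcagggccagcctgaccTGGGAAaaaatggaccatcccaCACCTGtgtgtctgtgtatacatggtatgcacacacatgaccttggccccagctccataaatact
Cela1, chr15:100687921-100688170, minus strand: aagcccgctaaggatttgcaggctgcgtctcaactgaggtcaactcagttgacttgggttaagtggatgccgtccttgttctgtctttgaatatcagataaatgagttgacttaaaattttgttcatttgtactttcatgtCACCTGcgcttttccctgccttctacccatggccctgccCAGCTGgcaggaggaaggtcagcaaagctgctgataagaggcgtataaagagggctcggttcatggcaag
Reg1, chr6:78425733-78425982, plus strand: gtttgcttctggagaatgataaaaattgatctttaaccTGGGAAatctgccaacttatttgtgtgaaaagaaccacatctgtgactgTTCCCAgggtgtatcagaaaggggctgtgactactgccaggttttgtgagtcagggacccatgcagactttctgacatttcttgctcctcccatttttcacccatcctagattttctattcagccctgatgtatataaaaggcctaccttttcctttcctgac
The Prss2 window holds CACCTG 169 bases and TGGGAA 111 bases before the start. The Cel window holds CACCTG on one strand or the other at 4 positions and TGGGAA at 87 bases before the start. In Cela1 the E-box sequences begin 109 and 70 bases before the start and TGGGAA does not occur, and in Reg1 TGGGAA occurs 212 and 163 bases before the start and neither E-box sequence does. Of the 22 secretory genes with a window in the table, 14 held CACCTG or CAGCTG and 14 held TGGGAA, against 27.7% and 21.6% of all 32851 promoter windows of the same length. Both kinds together occurred in 7 of the 22, against 6.31% of all windows. Several secretory genes, among them Cpa1, Pnlip and Rnase1, held TGGGAA without either E-box sequence, as Reg1 did. These are matches of letters, and no binding was measured. Whether they bear on the levels of the genes was not tested.

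The libraries held 80647185 to 104273669 counts and 15476 to 17805 genes with at least 1 count. For a gene listed at 0 the floor is set at 3 counts, which corresponded to 0.0284 to 0.0388 CPM. CPM, the unit of all levels below, is a gene's count scaled to a common library total with TMM factors. The labelled cell type was checked on epithelial keratins from a list of duct and metaplasia genes, which were abundant everywhere: Krt19 ranged from 5768 to 16846 CPM and Krt8 from 4958 to 12740.0 CPM. Krt8 is not particular to duct cells. Epcam, an epithelial surface protein singled out after its values were seen, was at most 0.474 CPM in 15 libraries and 29.0 CPM in GFP library 4.

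The secretory genes were detected in every sorted population, at very unequal levels between libraries. Summed over the 26 genes, they reached 1083, 2804, 438 and 35124 CPM in GFP libraries 1 to 4 and 233, 1096, 380.1 and 124 CPM in DN libraries 1 to 4. The sums were 1626, 278, 83.1 and 88.8 CPM in mScarlet libraries 1 to 4 and 121, 221, 53.1 and 72.7 CPM in DP libraries 1 to 4. GFP library 4 stood far above all others, GFP library 2 came next and mScarlet library 1 after it. The 4 DP sums all lay below the 4 GFP sums, whereas the DN and mScarlet sums overlapped both of the other groups. As a share of the library, secretory counts made up 3.27% of GFP library 4 (exact 95% binomial interval 3.270 to 3.278%) and 0.00545% of DP library 3 (0.00529 to 0.00561%). These intervals and the floor cover counting error only, since amplified reads without molecular identifiers are not independent molecules. In bulk RNA, fewer acinar cells in a sorted pool and less enzyme RNA per cell cannot be told apart.

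**Figure D1:**
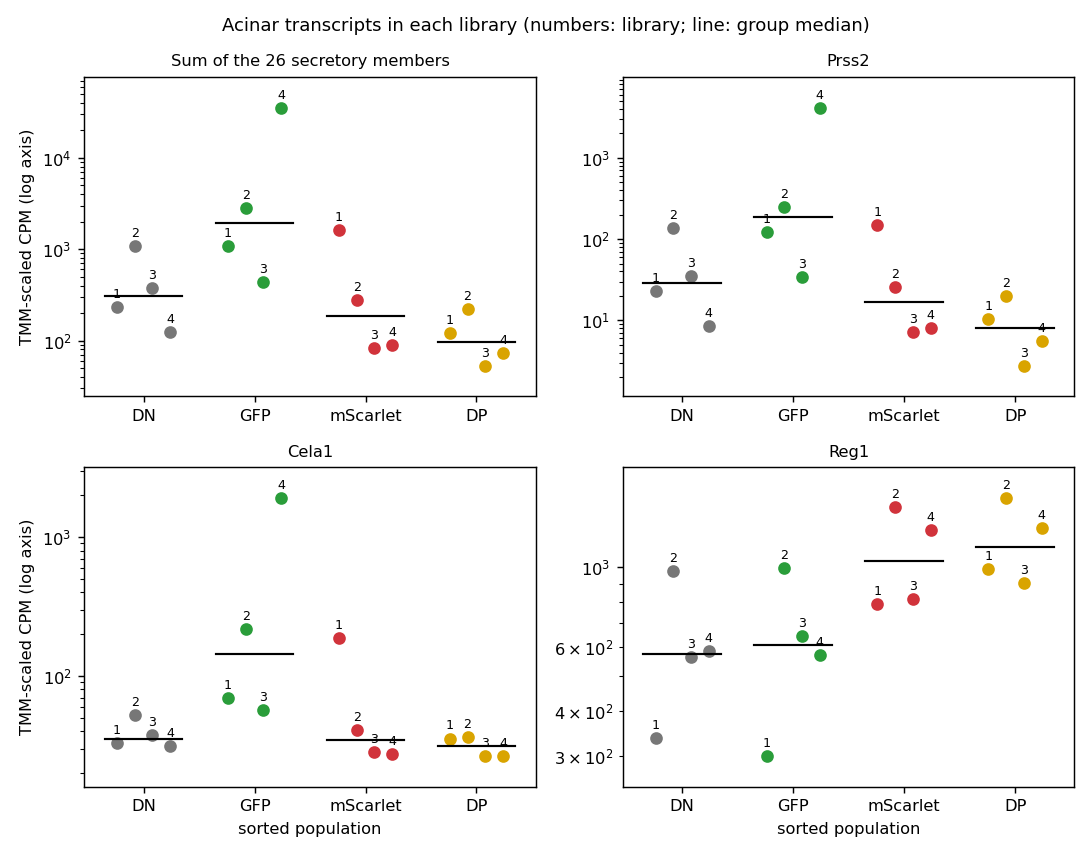
Each point is 1 library (numbered) and each line a group median, on log axes of TMM-scaled CPM, for the summed secretory genes, Prss2, Cela1 and Reg1 in the DN, GFP, mScarlet and DP populations. GFP library 4 stands at 35124 CPM for the sum, while Reg1 stays between 299 and 1555 CPM in all libraries.

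The group means of the sum were 9862 ± 16871 CPM in GFP, 519 ± 744 in mScarlet, 458 ± 438 in DN and 117 ± 75.0 in DP (SD, n = 4 each), so that in GFP and mScarlet the SD exceeded the mean. Leaving out GFP library 4 lowered the GFP mean to 1442 CPM, leaving out mScarlet library 1 lowered the mScarlet mean to 150.1 CPM and leaving out DN library 2 lowered the DN mean to 246 CPM. The GFP mean was the highest of the 4 groups for all 26 secretory genes, with and without GFP library 4. The DP mean was the lowest for 25 of 26, the exception being Ctrc, which is close to the floor. Every one of the 26 genes had its highest level in GFP library 4 and its second highest in GFP library 2. GFP library 4 alone held between 50.7% (Amy1) and 94.7% (Ctrc) of a gene's CPM summed over the 16 libraries, with a median of 82.1%. The highest library exceeded the lowest 71.4-fold for Cela1 and 4672-fold for Cela3b, with a median of 1584-fold over the 22 genes that were above 0 in every library.

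**Figure D2:**
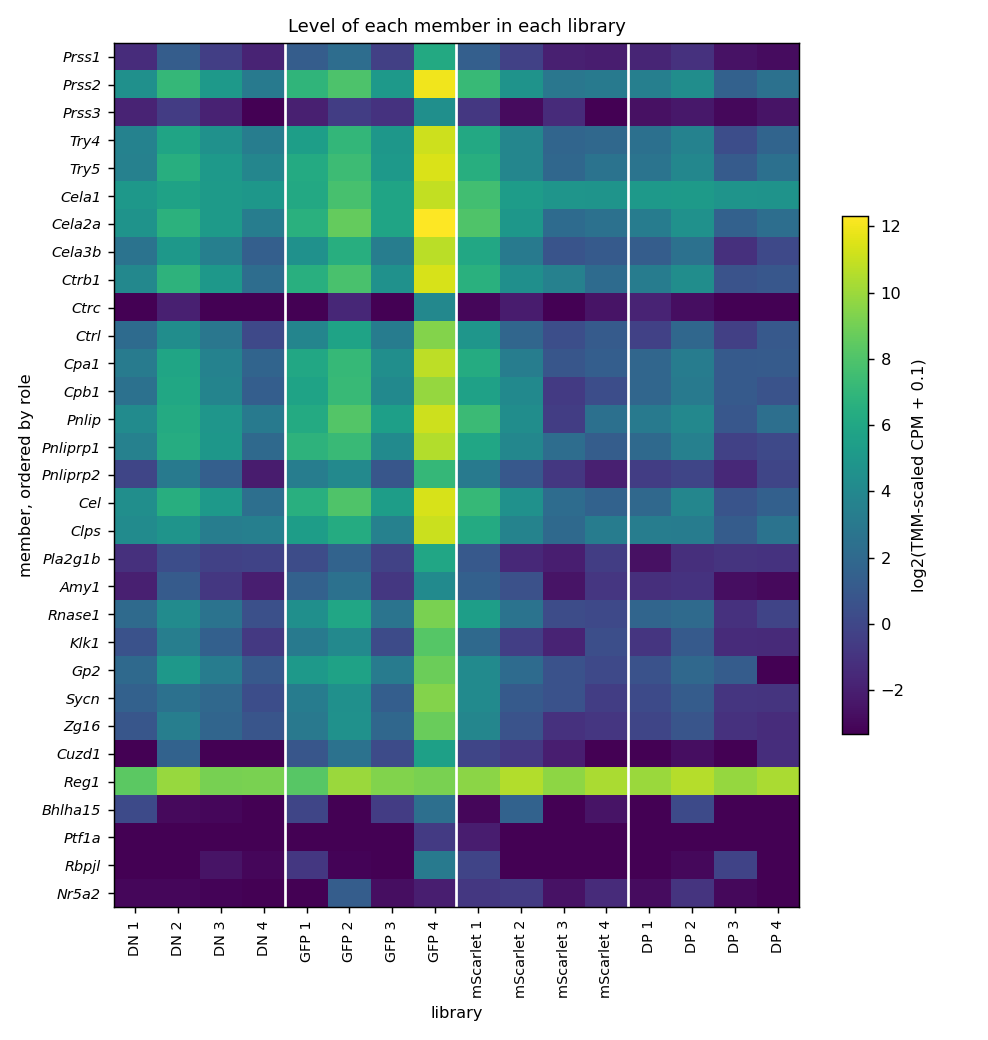
Rows are the 31 members in order of role and columns are the 16 libraries; colour gives log2(TMM-scaled CPM + 0.1). The column of GFP library 4 is the brightest for each of the 26 secretory genes, the Reg1 row is evenly bright, and the rows of the transcription factors are dark except in scattered libraries.

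None of the 30 members that passed the filter on low counts was called in any comparison by the quasi-likelihood test of edgeR, fitted to all 16 libraries with p-values adjusted by the Benjamini-Hochberg method over 15963 genes (threshold 0.05). Ptf1a did not pass the filter. Over all tested genes the same rule called 0.0% in GFP against DN, 0.996% in mScarlet against DN, 2.13% in DP against DN, 1.82% in GFP against mScarlet, 0.445% in DP against GFP and 0.0% in DP against mScarlet. The interaction, which asks whether the GFP effect differed between mScarlet-negative and mScarlet-positive cells, called 0.0%. The unadjusted p was under 0.05 for 27 of 30 members in GFP against DN, 27 in DP against GFP, 26 in GFP against mScarlet and 26 in the interaction. It was so for 2 each in DP against DN and mScarlet against DN and for 0 in DP against mScarlet, while over all tested genes the counts ran from 483 (DP against mScarlet) to 3084 (GFP against mScarlet). The shares of all tested genes were 10.0% in GFP against DN, 16.0% in DP against GFP, 19.3% in GFP against mScarlet and 3.35% in the interaction. They were 15.8% in DP against DN, 14.3% in mScarlet against DN and 3.03% in DP against mScarlet. Reg1 is among the members counted in DP against GFP and in GFP against mScarlet, where its direction was opposite to that of the secretory genes. DESeq2, run as another tool, called 13 members in GFP against DN, 19 in GFP against mScarlet, 20 in DP against GFP, 11 in the interaction and 0 in the other 3 comparisons, with no adjusted p for 6 members. Over all genes DESeq2 called 1.75% in GFP against DN, 10.5% in GFP against mScarlet, 6.8% in DP against GFP, 0.315% in the interaction, 5.76% in mScarlet against DN, 7.09% in DP against DN and 0.332% in DP against mScarlet. The description gives 4 mice per group, but no label says whether libraries of different gates with the same number come from the same mouse. The p-values measure the spread between libraries within a gate, tumour and sort together. The main fit did not use the library numbers. With library number as a block, edgeR called 791 genes in DP against GFP, compared with 71 without it, and Reg1, Amy1 and Pnliprp1 were among the 791.

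In GFP against DN all 26 secretory genes had positive log2 fold changes, from 3.18 (Amy1) to 6.55 (Ctrc), with a median of 4.46 and adjusted p from 0.361 to 0.519. The median over all tested genes was 0.02. Without GFP library 4 all 26 were still positive, but the median was 1.56 and the unadjusted p was under 0.05 for 1 gene. Cela1 was the only secretory gene whose 4 GFP libraries all lay above the 4 DN libraries, as did those of 1.91% of all tested genes.

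In DP against GFP all 26 secretory genes had negative log2 fold changes, from -7.57 (Cela3b) to -4.16 (Cela1), with a median of -6.72 and adjusted p from 0.0632 to 0.271. The median over all tested genes was -0.04. In 24 of the 26 every DP library lay below every GFP library, whereas 4.58% of all tested genes were separated in this direction. The exceptions were Klk1 and Ctrc. Without GFP library 4 the median was -3.85, all 26 stayed negative and the unadjusted p was under 0.05 for 23 genes, with a lowest adjusted p of 0.173. The share of all tested genes with such a p is not given for this reduced fit. With all 16 libraries it was 16.0% in this comparison. The calls depended on single libraries: without GFP library 3, edgeR called 22 members, all secretory and all lower in DP, against 1.95% of all genes. Without GFP library 2 it called 4 (Try4, Try5, Clps and Sycn), against 1.14% of all genes.

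In GFP against mScarlet the median log2 fold change of the secretory genes was 4.47, with 26 of 26 positive and adjusted p from 0.0713 to 0.277, against a median of 0.02 over all tested genes. Only Cuzd1 had all GFP libraries above all mScarlet libraries, and 5.22% of all tested genes were separated in this direction. Without GFP library 4 the median was 1.51, and without GFP library 3 edgeR called Clps, Klk1, Pla2g1b and Sycn, against 3.32% of all genes. These 3 comparisons use the same 4 GFP libraries and are not independent of each other.

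The comparisons without the GFP group had medians closer to 0. In DP against DN, 25 of 26 secretory genes had negative values with a median of -2.26 (lowest adjusted p 0.308), and the 4 DP libraries lay below the 4 DN libraries for Clps and Zg16, 2 of 26 against 7.37% of all tested genes. Without DN library 2 this median was -1.14. In DP against mScarlet, 25 of 26 were negative with a median of -2.23 and an adjusted p of 1.00 for each, and without mScarlet library 1 the median was -0.40. In mScarlet against DN, 14 were positive and 12 negative, with a median of 0.03, which turned to -1.76 without mScarlet library 1 and to 1.07 without DN library 2. By log2 fold change, GFP lay above DN for all 26 secretory genes, whereas DP lay below mScarlet for 25 of 26. The interaction, which subtracts DP against mScarlet from GFP against DN, had a median of 6.54 with all 26 positive (lowest adjusted p 1.000). Without GFP library 4 its median was 3.86, again with all 26 positive.

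**Figure D3:**
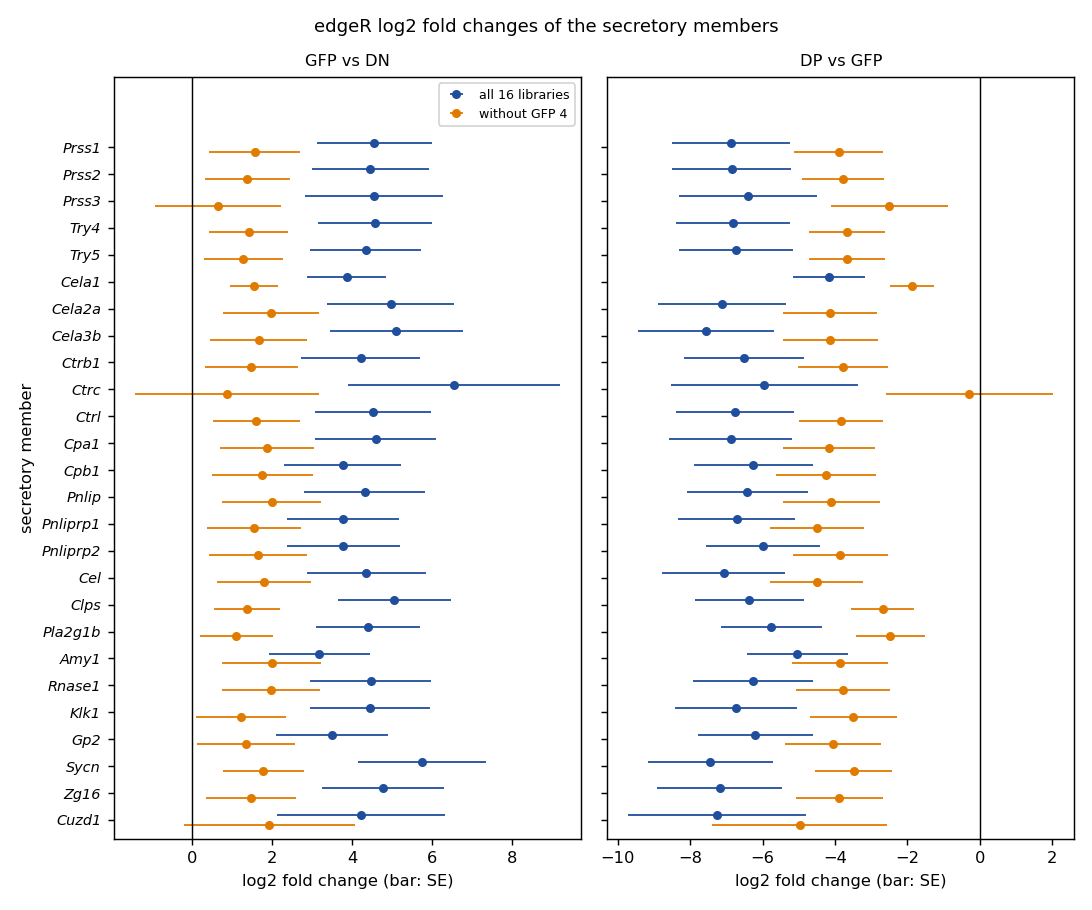
Points are edgeR log2 fold changes of the 26 secretory genes and bars their SE, in GFP against DN and DP against GFP, for all 16 libraries and without GFP library 4. All values lie on one side of 0 in each comparison, and leaving out GFP library 4 moves the medians from 4.46 to 1.56 and from -6.72 to -3.85.

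Among the trypsinogens, precursors of the protease that activates the other zymogens, Prss2 had the highest level. It measured 121, 249, 34.3 and 4091 CPM in GFP libraries 1 to 4 and 23.0, 138, 35.2 and 8.56 CPM in DN libraries 1 to 4. In mScarlet libraries 1 to 4 it measured 150.2, 25.7, 7.26 and 8.13 CPM, and in DP libraries 1 to 4 10.5, 20.1, 2.78 and 5.54 CPM. The lowest GFP library lay above all DP libraries but below DN libraries 2 and 3 and mScarlet library 1. Its log2 fold change was -6.85 (SE 1.65, adjusted p = 0.0663) in DP against GFP and 4.46 (SE 1.47, adjusted p = 0.387) in GFP against DN. Per kilobase of exon, the mean over all libraries was 378 CPM for Prss2, 233 for Try5, 208 for Try4, 6.91 for Prss1 and 1.91 for Prss3. Prss1 totalled 7411 counts and Prss3 2088 counts over 16 libraries, Prss3 being at 0 in 2 of them. All 5 trypsinogens were lower in every DP library than in every GFP library.

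Elastases and chymotrypsins cleave dietary protein after activation by trypsin, and Cela2a had the highest CPM of the 6. Per kilobase of exon, the mean over all libraries was higher for Ctrb1, with 237.5 CPM against 223.9 for Cela2a. This order depends on the length used. The annotated exons of Cela2a cover 1723 bases but its longest transcript has 1070, whereas both lengths are 878 bases for Ctrb1. By the longest transcript Cela2a would rank above Ctrb1. The values of Cela2a were 98.9, 386, 56.6 and 5114 CPM in GFP libraries 1 to 4 and 25.6, 108, 37.0 and 9.98 CPM in DN libraries 1 to 4. They were 254, 31.3, 4.39 and 5.72 CPM in mScarlet libraries 1 to 4 and 9.28, 23.7, 2.83 and 5.03 CPM in DP libraries 1 to 4. All DP libraries were below all GFP libraries, with a log2 fold change of -7.11 (SE 1.77, adjusted p = 0.0711). The chymotrypsinogen genes Ctrb1 and Ctrl had totals of 278340 and 69708 counts, and Cela3b had 157624. Ctrc, known for degrading trypsin, totalled 1334 counts, of which GFP library 4 held 94.7% by CPM, and was at 0 in 8 libraries.

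Cela1, singled out after its values were seen, differed from the other elastases at the low end. It held 35.5, 36.5, 26.7 and 26.6 CPM in DP libraries 1 to 4 and 33.0, 52.6, 37.4 and 31.3 CPM in DN libraries 1 to 4. The values were 69.9, 217, 57.1 and 1901 CPM in GFP libraries 1 to 4 and 189, 40.8, 28.3 and 27.3 CPM in mScarlet libraries 1 to 4. No library fell below 26.6 CPM, while Cela2a went down to 2.83 CPM and Cela3b to 0.351 CPM. The DN and DP means were 38.6 ± 9.70 and 31.3 ± 5.39 CPM (SD, n = 4 each), with a log2 fold change in DP against DN of -0.30 (SE 0.88, adjusted p = 0.926), whereas that of Cela2a was -2.15 (SE 1.41, adjusted p = 0.508). In DP against GFP it was -4.16 (SE 1.00, adjusted p = 0.0663), the value nearest to 0 of the 26. Without GFP library 4 it was -1.86 and that of Ctrc was nearer to 0, at -0.29.

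Of the carboxypeptidases, which remove residues from the ends of peptides, Cpa1 led. It reached 67.1, 143, 21.3 and 1768 CPM in GFP libraries 1 to 4 and 9.00, 58.3, 12.3 and 3.17 CPM in DN libraries 1 to 4, against 78.4, 9.98, 1.71 and 2.41 CPM in mScarlet libraries 1 to 4 and 3.48, 9.24, 2.05 and 2.19 CPM in DP libraries 1 to 4. The GFP and DP libraries did not overlap (log2 fold change -6.88 (SE 1.69, adjusted p = 0.0707)). Cpb1 had 110704 counts in all, ran from 0.521 to 935 CPM and was likewise separated between DP and GFP.

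The lipid-digesting group was led by Cel, the bile salt-activated lipase. Cel stood at 94.6, 254, 41.3 and 2667 CPM in GFP libraries 1 to 4 and 21.3, 87.9, 34.4 and 5.04 CPM in DN libraries 1 to 4. It stood at 141, 23.5, 4.56 and 2.87 CPM in mScarlet libraries 1 to 4 and 3.77, 14.6, 1.56 and 2.73 CPM in DP libraries 1 to 4. Here too the lowest GFP library exceeded every DP library (log2 fold change -7.08 (SE 1.69, adjusted p = 0.0663)), and DN and mScarlet overlapped. Pancreatic lipase Pnlip (250969 counts), its relatives Pnliprp1 (167164) and Pnliprp2 (15788), colipase Clps (203026) and phospholipase Pla2g1b (6028) were each lower in all DP than in all GFP libraries. Per kilobase of exon, Clps had the highest mean of the group at 249.8 CPM, above Cel at 101 and Pnlip at 85.4 CPM.

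Among amylase, ribonuclease and kallikrein, the pancreatic ribonuclease Rnase1 led with 22.3, 61.4, 6.25 and 580.4 CPM in GFP libraries 1 to 4 and 4.08, 18.6, 6.24 and 1.28 CPM in DN libraries 1 to 4. In mScarlet libraries 1 to 4 its values were 44.0, 6.18, 1.14 and 1.000 CPM, and in DP libraries 1 to 4 3.38, 4.14, 0.363 and 0.835 CPM. The DP and GFP libraries did not overlap (log2 fold change -6.26 (SE 1.66, adjusted p = 0.0776)). Klk1, tissue kallikrein, ran from 0.188 to 296 CPM and did overlap, since GFP library 3 had 1.09 CPM and DP library 2 had 2.08 CPM. Amy1, in mice the amylase of the salivary gland and liver, stayed at or below 17.6 CPM. Its share in GFP library 4, 50.7% of its CPM over all libraries, was the smallest of the 26, and the second highest library, GFP library 2, had 5.53 CPM.

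The granule proteins varied with the enzymes. Gp2, a glycoprotein of the zymogen granule membrane, ran up to 453 CPM and was at 0 in DP library 4. Syncollin (Sycn) ran from 0.417 to 680.5 CPM and Zg16 from 0.293 to 426 CPM. Cuzd1, a zymogen granule membrane protein with 4990 counts in all, was at 0 in 6 libraries, none of them from the GFP gate. All 4 were lower in every DP library than in every GFP library. Sycn had the lowest adjusted p of these in DP against GFP, with a log2 fold change of -7.44 (SE 1.74, adjusted p = 0.0639).

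Reg1, a secreted lectin-like protein, had the highest level of all members, 972 CPM per kilobase on average over the libraries against 378 for Prss2. It measured 336, 976, 564 and 587 CPM in DN libraries 1 to 4 and 299, 997, 645 and 573 CPM in GFP libraries 1 to 4. It measured 789, 1473, 816 and 1266 CPM in mScarlet libraries 1 to 4 and 991, 1555, 905 and 1287 CPM in DP libraries 1 to 4. The gates with the mScarlet signal had the higher values, with overlap, since DN library 2 and GFP library 2 reached the level of the lower mScarlet and DP libraries. Within each library number, the mScarlet and DP libraries both lay above the DN and GFP libraries. No label says that a number marks the same mouse. GFP library 4, highest for every secretory gene, held 4.07% of the summed Reg1 CPM. The group means in CPM were 1185 ± 296 for DP, 1086 ± 338 for mScarlet, 629 ± 287 for GFP and 616 ± 266 for DN (SD, n = 4 each). The log2 fold changes were 0.82 (SE 0.35, adjusted p = 0.303) in mScarlet against DN, 0.94 (SE 0.35, adjusted p = 0.196) in DP against DN, 0.91 (SE 0.35, adjusted p = 0.218) in DP against GFP and 0.03 (SE 0.35, adjusted p = 0.991) in GFP against DN. None of these passed the threshold with group as the only term. With library number as a block, edgeR gave adjusted p = 0.0168 in mScarlet against DN and 0.0067 in DP against DN. It gave 0.0122 in DP against GFP and 0.972 in GFP against DN. Over all genes the block fit called 814, 975, 791 and 11 in these comparisons.

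The 4 acinar transcription factors had few or no counts in most libraries and higher counts in scattered ones. Bhlha15, which drives the build-up of the secretory apparatus, had 110, 3, 2 and 0 counts in DN libraries 1 to 4 and 82, 0, 49 and 414 in GFP libraries 1 to 4. It had 2, 222, 0 and 7 counts in mScarlet libraries 1 to 4 and 0, 85, 0 and 0 in DP libraries 1 to 4. The highest library of each group stood far from the rest of its group, and 6 libraries were at 0. Rbpjl, the acinar subunit of the PTF1 complex, had 0, 0, 7 and 2 counts in DN libraries 1 to 4 and 45, 1, 0 and 707 in GFP libraries 1 to 4. Its counts were 75, 0, 0 and 0 in mScarlet libraries 1 to 4 and 0, 2, 66 and 0 in DP libraries 1 to 4, so that GFP library 4 held most of them. Ptf1a, the defining factor of the complex, had 43 counts in GFP library 4, 13 in mScarlet library 1 and 0 in the other 14 libraries. Those are the libraries with the highest secretory sums of the GFP and mScarlet groups, while GFP library 2, second highest of all, had 0 counts of Ptf1a and 1 of Rbpjl. Nr5a2, a nuclear receptor of acinar cells, had 2, 2, 1 and 0 counts in DN libraries 1 to 4 and 0, 194, 4 and 12 in GFP libraries 1 to 4. In mScarlet libraries 1 to 4 it had 44, 44, 6 and 25 and in DP libraries 1 to 4 4, 32, 2 and 0 counts. All 4 mScarlet libraries were above all 4 DN libraries for Nr5a2, which had at most 2 counts in DN (log2 fold change 4.60 (SE 1.93, adjusted p = 0.285)), and 5.03% of all tested genes were separated in this direction. With so few counts, absence of a factor from a library was not detectable at this depth as distinct from a low level.

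The composition of the secretory counts varied less than their sum. Trypsinogens made up 11.8% to 26.5% of the counts of the 26 genes, lipid-digesting enzymes 13.0% to 30.9% and carboxypeptidases 2.68% to 11.1%, although the sum itself varied between 53.1 and 35124 CPM. Elastases and chymotrypsins made up 27.6% to 60.4%, and most of that range came from Cela1, which took 4.80% of the counts in DN library 2, 5.41% in GFP library 4 and 50.3% in DP library 3. Cela2a took 5.28% to 15.6% and Prss2 5.24% to 12.5%. Corrected for exon length, Prss2 took a median of 14.4%, Ctrb1 10.7%, Clps 10.0% and Cela1 8.01%. The exons of Cela1 cover 2306 bases but its longest transcript has 1108, so its corrected share and rank depend on the length used. For Prss2, Ctrb1 and Clps the lengths are equal. The mean share of trypsinogens was 17.9% for DP, 19.4% for mScarlet, 22.9% for GFP and 24.6% for DN, a difference between groups that was not tested.

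**Figure D4:**
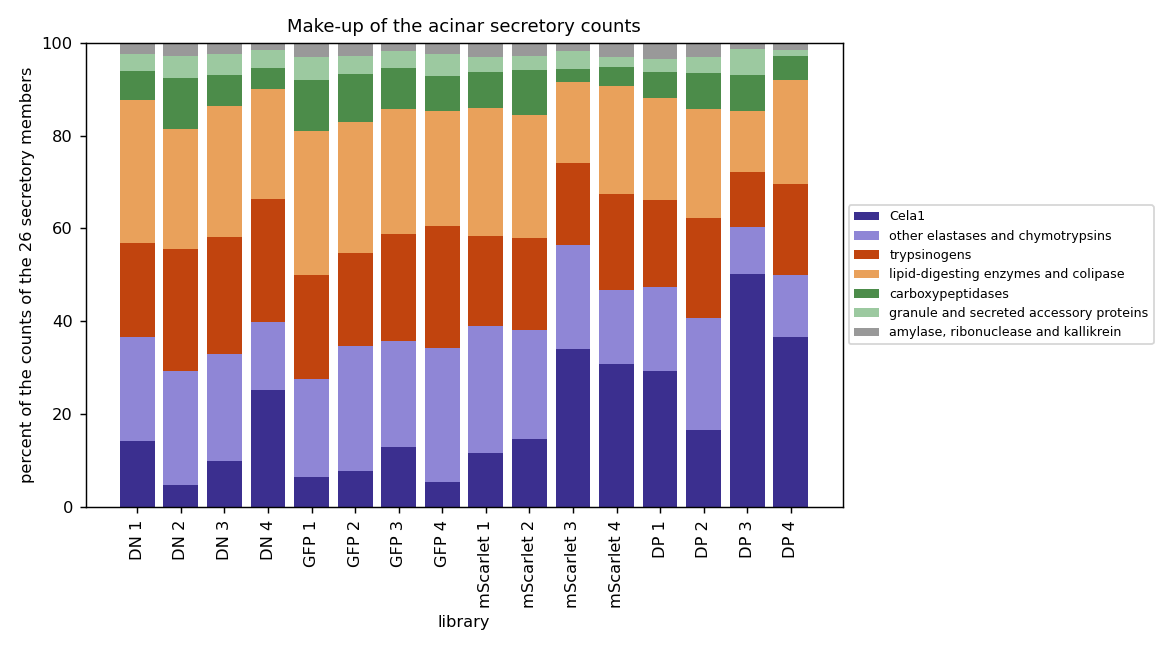
Stacked bars give the percent of the counts of the 26 secretory genes in each library that fell to Cela1, the other elastases and chymotrypsins, and the other roles. Cela1 takes 50.3% in DP library 3 and 5.41% in GFP library 4, and trypsinogens take 11.8% to 26.5% across the libraries.

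A list of 20 other acinar genes was examined beside the members, and edgeR called 0 of 19 tested in each comparison. Their unadjusted p was under 0.05 for 11 genes in GFP against DN, 13 in DP against GFP and 12 in GFP against mScarlet, and DESeq2 called 4, 10 and 7 in these. Over all tested genes the shares with such a p were 10.0%, 16.0% and 19.3%, and DESeq2 called 1.75%, 6.8% and 10.5%. The median log2 fold change was -5.82 in DP against GFP and 3.52 in GFP against DN. The most abundant of the list did not share the pattern of the enzymes: Dmbt1, a mucin-like secreted protein, ran from 3766 to 32409.9 CPM and was highest in DP library 2. Rab3d, a granule GTPase, ran from 152 to 300.1 CPM, and Nupr1, a stress-induced factor, from 65.6 to 670.0 CPM. Genes singled out after their values were seen did share it. Amy2a5, the pancreatic amylase, measured 128, 326, 33.5 and 1457 CPM in GFP libraries 1 to 4 and 9.49, 18.2, 3.17 and 3.18 CPM in DP libraries 1 to 4. Spink1, a trypsin inhibitor stored with the zymogens, measured 1.15, 3.10, 0.417 and 52.4 CPM in GFP libraries 1 to 4 and at most 1.22 CPM in the DN, mScarlet and DP libraries. The cholecystokinin receptor Cckar had 12.3 CPM in GFP library 4 and at most 0.813 CPM elsewhere.

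General partners of the acinar factors and the secretory stress genes did not track the enzymes. Of 12 PTF1 partners and pancreas factors edgeR called 0 in each comparison, with 0 and 2 at an unadjusted p under 0.05 in GFP against DN and DP against GFP, and median log2 fold changes of 0.04 and 0.04. Over all tested genes 10.0% and 16.0% had such a p in these comparisons. DESeq2 called 1 of the 12 in DP against DN and 1 in mScarlet against DN, where it called 7.09% and 5.76% of all genes. Xbp1, the factor of the unfolded protein response, ran from 566 to 1150.2 CPM and Tcf3, an E-box-binding factor, from 178 to 311 CPM. Xbp1 was lowest in GFP library 4. Of 20 genes of protein folding and stress in the endoplasmic reticulum, edgeR also called 0 in each comparison. In GFP against DN and DP against GFP, 0 and 2 of the 20 had an unadjusted p under 0.05. DESeq2 called 1 of the 20 in DP against DN. Their summed level ran from 4431 CPM in GFP library 4 to 5633 CPM in a DP library. Calr, Sec61a1 and Herpud1, the most abundant, ran from 795 to 1263, from 628 to 1214 and from 297 to 593 CPM.

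Markers of other pancreatic and stromal cells also differed between libraries. The fibroblast list was highest in the same GFP libraries as the secretory genes, but not in the same DN or DP libraries. The macrophage, erythroid and islet lists were highest in other GFP libraries. The 12 fibroblast markers summed to 10114 CPM in GFP library 4 and 1779 CPM in GFP library 2, the 2 libraries highest for the secretory genes, and to 826 and 619 CPM in GFP libraries 1 and 3. In DN libraries 1 to 4 the fibroblast sums were 440, 136, 176 and 1514 CPM, the reverse order of the secretory sums of 233, 1096, 380 and 124 CPM. In DP libraries 1 to 4 they were 109, 145, 27.8 and 278 CPM, against secretory sums of 121, 221, 53.1 and 72.7 CPM. The mScarlet range was 17.8 to 89.4 CPM, with 89.4 CPM in mScarlet library 1, next after GFP libraries 4 and 2 for the secretory genes. Col3a1, a fibrillar collagen, measured 349.8, 908, 225 and 5156 CPM in GFP libraries 1 to 4 and 41.8, 6.40, 10.8 and 24.3 CPM in mScarlet libraries 1 to 4. The fibroblast genes called in GFP against mScarlet, all higher in GFP, were Col3a1 with a log2 fold change of 6.32 (SE 1.18, adjusted p = 0.0251), Col1a1, Col1a2, Pdgfrb and Pi16, and Pdgfrb was called lower in mScarlet than in DN. Over all tested genes edgeR called 1.82% and 0.996% in these comparisons. No fibroblast marker was called by edgeR in DP against GFP, where 10 of 12 had an unadjusted p under 0.05 and DESeq2 called 7. Over all tested genes 16.0% had such a p in this comparison, and DESeq2 called 6.8%.

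The 12 macrophage markers summed to 26022 CPM in GFP library 1 but only 1096 CPM in GFP library 4, within the DN range of 989 to 3793 CPM. They ranged from 1297 to 2466 CPM in mScarlet and from 2327 to 6897 CPM in DP. All 12 had positive log2 fold changes in GFP against DN, with a median of 2.80 and an unadjusted p under 0.05 for 10. In GFP against mScarlet all 12 were positive too, with a median of 3.77 and an unadjusted p under 0.05 for 11, and in DP against GFP all 12 were negative, with a median of -1.30 and an unadjusted p under 0.05 for 0. edgeR called 0 of the 12 in these 3 comparisons, and DESeq2 called 1, 8 and 0. Over all tested genes 10.0%, 19.3% and 16.0% had an unadjusted p under 0.05 in them, and DESeq2 called 1.75%, 10.5% and 6.8%. The 4 erythroid genes with a row summed to 4539 CPM in GFP library 1 and 4.69 CPM in GFP library 4, with highest values of 278 in DN, 205 in mScarlet and 609.6 CPM in DP. The 14 islet markers, genes of the endocrine cells that neighbour the acini, summed to 27.9 CPM in GFP library 1 and 41.9 CPM in GFP library 3, but to 2.44 CPM in GFP library 4, where 10 of 14 were at 0, and 0.443 CPM in GFP library 2. Elsewhere their sum was at most 5.11 CPM. The insulin gene Ins2 had 13.0, 0, 25.9 and 1.10 CPM in GFP libraries 1 to 4. Thus the libraries rich in islet transcripts were not those richest in acinar transcripts. Endothelial markers summed to at most 54.8 CPM and lymphocyte markers to at most 32.2 CPM in any library. The part of other cells in the acinar values was not tested.

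**Figure D5:**
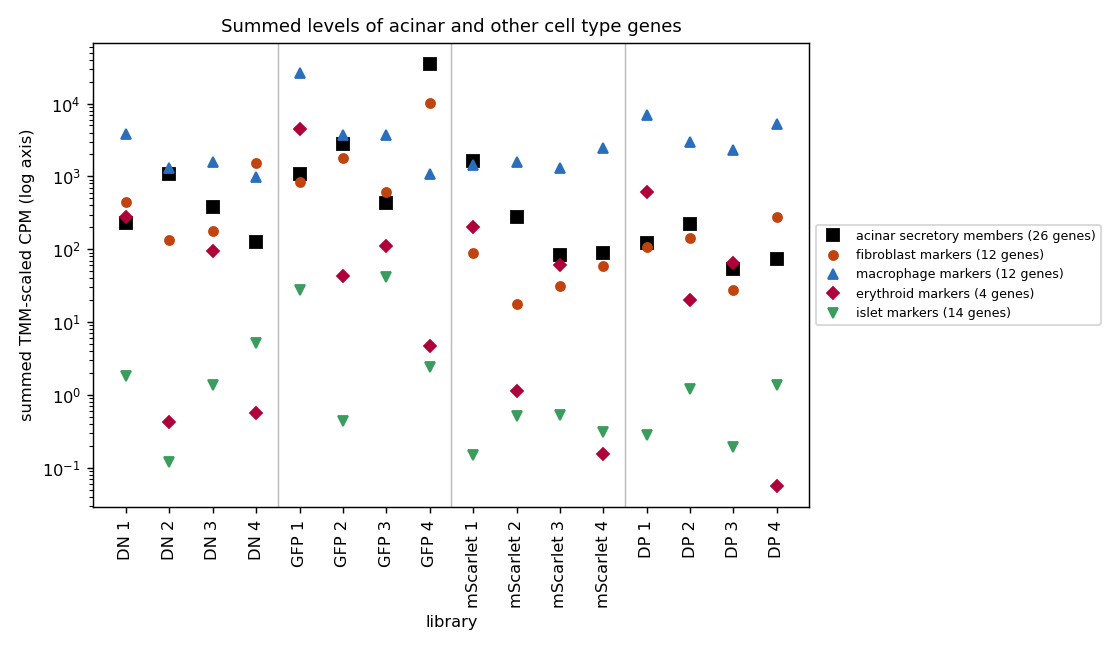
Points give the summed TMM-scaled CPM (log axis) of the 26 acinar secretory genes and of fibroblast, macrophage, erythroid and islet marker lists in each library. The acinar and fibroblast sums are both highest in GFP library 4, the macrophage and erythroid sums in GFP library 1 and the islet sum in GFP library 3.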

How the data were processed

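RNA of 16 sorted cell samples (4 DN, 4 GFP, 4 mScarlet, 4 DP) was, per the labels' protocols, extracted with a micro-scale column kit, made into full-length cDNA, amplified by PCR and sequenced as paired reads of 100 bases. Counts per gene, as whole numbers without normalization and keyed by Entrez identifier, were deposited by the authors. The submitters' processing notes name GRCm38 (mm10), STAR and DESeq2 1.24.0 without their roles, and read counter, annotation and strand setting are each not given in the sources used here. Of the 24467 identifiers 24437 matched a RefSeq symbol (GRCm38.p6), and the other 30, with 0.723% to 1.93% of the counts, stayed in the totals.

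Counts were filtered by edgeR 4.0.16 (R 4.3.3), leaving 15963 genes, scaled by TMM and tested with the quasi-likelihood test, group being the only term. All 6 comparisons and the interaction were tested, with Benjamini-Hochberg adjustment over all tested genes and a threshold of 0.05. The fit was tested on simulated counts. DESeq2 1.42.0, limma 3.58.1 (voom), other scalings, no filter, summed copies, a term for library number and leaving out each library were tried as alternatives. Exon lengths and transcripts are from GENCODE M21. An exon length covers all annotated exons of a gene, also those outside its longest transcript.

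The members and the comparison lists were chosen with earlier results of these data known. The genes named with values in every library are the most abundant of each role and the 4 transcription factors; in other lists, the 3 most abundant genes and any called gene (1 of them is not reported here); others are said to be singled out. Hba-a2, Hbb-bs and Trbc2 had no row and were not used here, and promoter windows of Clps, Ctrc, Try5 and Zg16 were not used here.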

Additional observations from a re-analysis of the deposited data

Results flagged for a closer look

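A library was singled out where its gap to the nearest of the other 3 libraries of its group, divided by the range of the group, exceeded the 95% limit of Dixon's test for 4 values. Of 50 groups of 4 examined, 28 had such a library. The limit flags about 1 in 20 groups when values are normally distributed. CPM values here were skewed and some groups had counts in only 1 library, so that rate does not apply to them. The genes have their highest values in the same libraries, so these are not separate events. GFP library 4 stood apart in its group for the summed secretory level (35124 CPM), Cela2a (5114), Prss2 (4091), Cel (2667), Cela1 (1901), Cpa1 (1768), Rnase1 (580.4), Rbpjl (8.62), Bhlha15 (5.05) and Ptf1a (0.524 CPM).

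In the mScarlet group, library 1 stood apart for the summed secretory level (1626 CPM), Cela2a (254), Cela1 (189), Prss2 (150.2), Cel (141), Cpa1 (78.4), Rnase1 (44.0), Rbpjl (0.808) and Ptf1a (0.140 CPM). For Bhlha15 it was mScarlet library 2 (2.87 CPM). The other cases were Cpa1 (58.3 CPM) and Amy1 (2.12) in DN library 2, Bhlha15 in DN library 1 (1.04) and Nr5a2 in GFP library 2 (2.32 CPM). In the DP group Cel (14.6 CPM), Bhlha15 (1.07) and Nr5a2 (0.401) were high in library 2 and Rbpjl (0.799 CPM) in library 3. Several of the transcription factor values rest on fewer than 100 counts.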

How the results depend on the processing

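The count of called members, 0 in each comparison by edgeR, changed with the test and with single GFP libraries. DESeq2 called 13 members in GFP against DN, 19 in GFP against mScarlet, 20 in DP against GFP and 11 in the interaction, while voom with and without quality weights, other scalings, no low-count filter, 2-group fits and summed copies called 0 members in every comparison in which they were run (the interaction was not run on 2 groups). Leaving out 1 library gave 0 to 22 calls in DP against GFP (22 without GFP library 3, 4 without GFP library 2) and 0 to 4 in GFP against mScarlet. The cause was not tested.

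No label says that same-numbered libraries came from the same mouse. Libraries with the same number correlated in their deviations at 0.0581 to 0.416, over 0.1 in 20 of 24 pairs. Libraries with different numbers correlated at -0.26 to 0.172, and 15 of 16 libraries correlated best with their own number. Variation was thus shared by number, and its source was not tested. With library number as a replicate block, Reg1 was called in mScarlet against DN, DP against DN and GFP against mScarlet (1 member each), and 3 members in DP against GFP (Reg1, Amy1 and Pnliprp1). Over all genes the block raised the calls from 0 to 11 in GFP against DN, 159 to 814 in mScarlet against DN, 340 to 975 in DP against DN, 290 to 1178 in GFP against mScarlet and 71 to 791 in DP against GFP.

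The median log2 fold change of the secretory genes in GFP against DN was 1.82 by voom with quality weights, 1.56 without GFP library 4, also without GFP library 4 and mScarlet library 1 (an alternative chosen after seeing the data), and up to 5.44 when leaving out 1 library. In GFP against mScarlet leaving out 1 library gave 1.51 to 6.02. In DP against GFP it gave -7.40 to -3.85, quality weights gave -4.25, and leaving out both libraries -3.85. Across the 27 fold changes of named members, 690 of 718 values under alternatives stayed on the same side of the threshold and 28 newly passed it. Small values could change sign: Reg1 in GFP against DN had a log2 fold change of 0.03 with all libraries and -0.30 without GFP library 2. Low counts limit the transcription factors, Ctrc, Prss3, Amy1 and Cuzd1.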

Other observations

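Among duct and mucous genes, edgeR called 2 of 15 tested duct and metaplasia genes and 3 of 7 tested goblet cell genes in mScarlet against DN and again in DP against DN, all higher than in DN. It called 0.996% and 2.13% of all tested genes in these comparisons, 1.82% in GFP against mScarlet and 0.445% in DP against GFP. The median log2 fold changes of these lists in GFP against DN were 0.02 and 0.12, with 0 called. Epcam, of the duct list, had values of 5.00 in GFP against DN and -4.99 in DP against GFP, neither of them called. The trefoil factors Tff1 and Tff2, secreted by mucous cells, were called higher in mScarlet than in DN, with log2 fold changes of 2.96 (SE 0.56, adjusted p = 0.0230) and 1.84 (SE 0.37, adjusted p = 0.0289) by edgeR, and in DP than in DN, with 2.61 (SE 0.56, adjusted p = 0.0244) and 1.51 (SE 0.37, adjusted p = 0.0437). Tff3, Agr2 and Clca1, goblet cell genes, were called higher in both of these comparisons as well. In GFP against mScarlet Tff1, Tff2, Tff3 and Agr2 were called lower in GFP, and in DP against GFP Agr2 was called higher in DP, with a log2 fold change of 2.00 (SE 0.41, adjusted p = 0.0451) by edgeR. Tff1 measured 176, 64.5, 230.5 and 53.3 CPM in mScarlet libraries 1 to 4 and 16.8, 10.7, 29.0 and 10.7 CPM in DN libraries 1 to 4, with no overlap, and 12.6 CPM in GFP library 4. These comparisons share libraries with each other.

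Claudin 4 (Cldn4), singled out after its values were seen, measured 37.0 CPM in GFP library 4 and at most 4.48 CPM in the other 15 libraries, as Epcam did with 29.0 CPM. Within each group the highest secretory sum came from a different library number in GFP (library 4) and mScarlet (library 1), and from library 2 in both DN and DP.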
